A study of Mus musculus with 15 samples.

Results

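The genes described here are Xbp1, the transcription factor of one branch of the unfolded protein response, and 9 chaperone and quality control genes of the endoplasmic reticulum (ER): Hspa5, Hsp90b1, Hyou1, Pdia4, Dnajb9, Herpud1, Creld2, Sdf2l1 and Calr. They were taken by name, by a rule that uses no measured value but was proposed with earlier results of these data known, and are 10 of the 20325 genes listed for each liver. All 10 passed the filter on low counts, which 12377 genes passed. Livers came from male C57BL/6J mice, an inbred laboratory strain with no engineered allele, dissected when 19 weeks old, in 5 groups of 3. Germ-free (GF) mice lived without microorganisms, and conventionally raised (ConvR) mice acquired a microbiota from birth. Conventionalized (ConvD) mice were germ-free until 15 weeks of age, received a single gavage of cecal contents from chow-fed ConvR donors, and were kept for 4 weeks in filter-top cages. Every mouse ate its diet from 3 weeks of age. Chow gave 23.7% of its energy as fat, 53.2% as carbohydrate and 23.1% as protein. The high-fat, high-sucrose diet (HF/HS) gave 44.6% as fat, 40.6% as carbohydrate and 14.8% as protein. Both GF and ConvR mice ate either diet and ConvD mice ate chow, and both diets were irradiated and autoclaved. Mice shared cages by colonization status and diet, and GF and ConvR mice lived in separate isolators, so that housing and group cannot be told apart and the spread between mice may not cover differences between cages.

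Proteins that a hepatocyte secretes, albumin and clotting factors among them, fold in the ER. When unfolded chains build up there, the sensors IRE1, PERK and ATF6 start the unfolded protein response: IRE1 cuts the Xbp1 mRNA so that the active XBP1 protein is made, PERK slows translation and favours ATF4, and ATF6 is released by cleavage as a transcription factor. XBP1 and ATF6 then raise transcription of chaperones, of folding enzymes and of the machinery that returns misfolded proteins to the cytosol for degradation. In the liver XBP1 is also known for its part in lipid synthesis, and feeding and inflammation are known to engage this response.

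XBP1 and ATF6 act at the ER stress response element, ERSE, which reads CCAAT, any 9 bases and CCACG, and at ERSE-II, which reads ATTGG, any 1 base and CCACG. XBP1 also acts at the unfolded protein response element, UPRE, TGACGTGG. Promoter windows of 300 bases, from 250 before to 50 after the RefSeq start site on build GRCm38.p6, were at hand for 9 of the 10 genes, Hyou1 being the exception. Both strands were searched. ERSE was found in 4 of the 9 (Hspa5, Hsp90b1, Creld2 and Calr) and ERSE-II in Herpud1, while the letters of UPRE were in none of these windows. Of 32851 promoter windows of the same length in the table, 0.119% held ERSE, 0.037% held ERSE-II and 0.676% held UPRE. The shorter CCAAT box, which ERSE contains and which ERSE-II contains on its reverse strand, was in 8 of the 9 windows and in 37.4% of all windows. The 250 bases before the start site are shown for the genes with a match to ERSE or ERSE-II and for Sdf2l1, which had neither but which changed most often below. Each runs 5′ to 3′ on the gene's own strand, with ERSE or ERSE-II in capitals.
Hspa5, chr2:34771840-34772089, plus strand: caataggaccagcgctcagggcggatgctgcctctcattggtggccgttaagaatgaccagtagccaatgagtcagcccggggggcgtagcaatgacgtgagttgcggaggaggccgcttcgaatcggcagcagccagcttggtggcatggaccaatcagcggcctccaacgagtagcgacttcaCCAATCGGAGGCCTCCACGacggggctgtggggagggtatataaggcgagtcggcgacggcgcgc
Hsp90b1, chr10:86705445-86705694, minus strand: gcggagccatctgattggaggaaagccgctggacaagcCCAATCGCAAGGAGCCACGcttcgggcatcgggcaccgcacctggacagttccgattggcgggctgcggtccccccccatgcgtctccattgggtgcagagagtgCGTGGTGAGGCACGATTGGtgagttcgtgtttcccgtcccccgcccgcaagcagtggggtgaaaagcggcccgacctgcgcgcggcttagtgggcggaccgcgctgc
Creld2, chr15:88819396-88819645, plus strand: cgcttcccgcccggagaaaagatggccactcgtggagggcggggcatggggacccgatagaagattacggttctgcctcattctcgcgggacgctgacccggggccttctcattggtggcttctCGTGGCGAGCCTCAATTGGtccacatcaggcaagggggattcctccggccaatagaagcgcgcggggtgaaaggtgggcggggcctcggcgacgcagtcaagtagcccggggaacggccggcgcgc
Calr, chr8:84846932-84847181, minus strand: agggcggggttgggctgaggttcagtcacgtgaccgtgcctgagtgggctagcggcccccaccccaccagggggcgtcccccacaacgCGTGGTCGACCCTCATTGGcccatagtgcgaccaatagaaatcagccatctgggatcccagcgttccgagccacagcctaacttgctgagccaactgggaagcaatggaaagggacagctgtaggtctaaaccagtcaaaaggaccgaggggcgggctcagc
Herpud1, chr8:94386179-94386428, plus strand: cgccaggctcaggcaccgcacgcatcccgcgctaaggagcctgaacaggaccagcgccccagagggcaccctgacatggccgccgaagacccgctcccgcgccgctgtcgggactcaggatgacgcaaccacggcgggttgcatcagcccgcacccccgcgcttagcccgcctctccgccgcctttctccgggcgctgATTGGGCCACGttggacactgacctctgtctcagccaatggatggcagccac
Sdf2l1, chr16:17132384-17132633, minus strand: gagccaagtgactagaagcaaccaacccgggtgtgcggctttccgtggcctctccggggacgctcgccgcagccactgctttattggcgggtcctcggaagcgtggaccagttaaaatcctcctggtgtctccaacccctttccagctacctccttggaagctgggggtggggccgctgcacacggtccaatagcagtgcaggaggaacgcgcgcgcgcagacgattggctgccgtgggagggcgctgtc
The ERSE of Hspa5 read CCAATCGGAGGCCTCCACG and began 65 bases before the start site. Hsp90b1 held 2, which read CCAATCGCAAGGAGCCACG and, on the opposite strand, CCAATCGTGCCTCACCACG, and those of Creld2 and Calr also lay on the opposite strand. These matches are descriptions of the letters and no binding was measured.

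**Figure D1:**
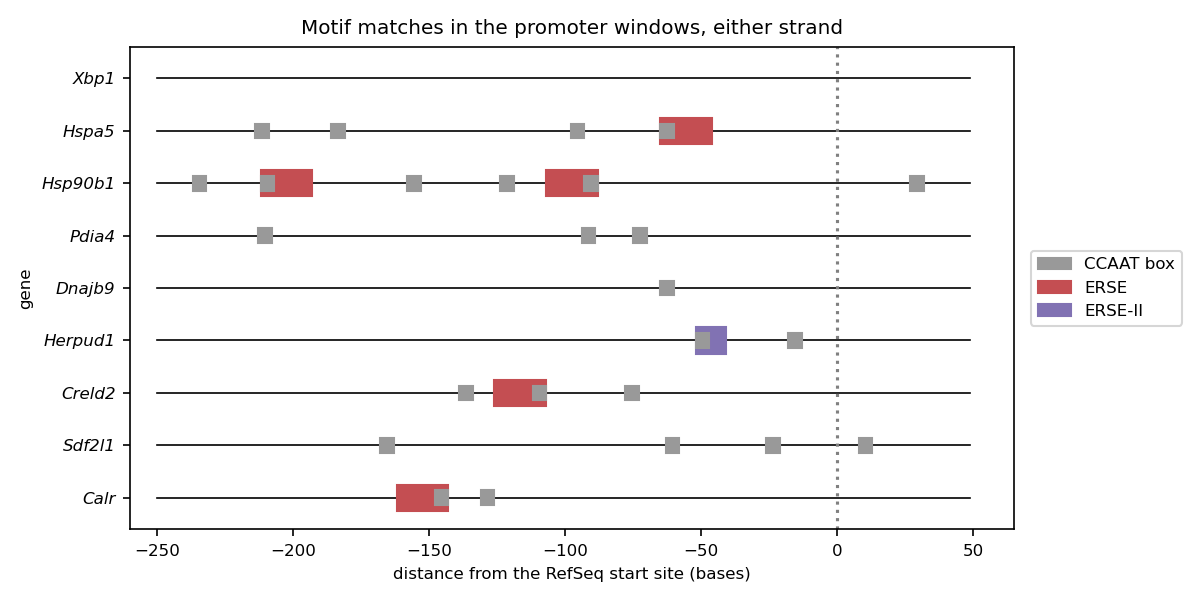
Matches to ERSE, ERSE-II and the CCAAT box on either strand in the promoter windows of the 9 genes with a RefSeq promoter (horizontal axis: bases from the start site). ERSE lay in 4 genes and ERSE-II in 1, all before the start site, and Xbp1 had no match to any of the motifs.

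The stretch that IRE1 removes is shown for Xbp1 because the values below do not resolve it. It is 26 bases long, which is not a multiple of 3, so that its removal shifts the reading frame. In the GENCODE M21 transcript Xbp1-201 it spans bases 818 to 843 and is in capitals, with 17 bases of flank on each side.
Xbp1: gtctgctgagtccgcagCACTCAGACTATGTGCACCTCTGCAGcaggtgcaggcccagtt
A gene-level count sums the spliced and unspliced forms, so that the Xbp1 values give the total of its mRNA and not the activity of IRE1.

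Estimated read counts per liver totalled 14737578 to 21794811, and the 10 genes together took 0.330% to 0.671% of a library. The hepatocyte marker Alb stood at 20163 to 76113 TPM, a transcript level scaled by gene length and library total. Of the markers of the exocrine pancreas, whose cells are rich in ER, Cpb1 was at 0 in all 15 livers, Pnlip, Cpa1, Ctrb1, Prss2, Cel and Amy2a5 reached at most 0.49 TPM, Cela2a reached 1.22 TPM and Cela1 ran from 15.7 to 61.5 TPM. Of those of plasma and B cells, Igj, Cd79a, Cd79b, Pou2af1 and Tnfrsf17 reached at most 2.73 TPM and Derl3 10.5 TPM, while Sdc1, which hepatocytes also express, ran from 80.3 to 126 TPM. In bulk RNA, fewer cells of a type and less RNA per cell cannot be told apart. Libraries that stood apart were GF chow 1 and ConvR chow 1 and 2. GF chow 1 was highest in immediate early transcripts, with a summed level of 1258 TPM against 69.4 to 350 TPM in the other 14. ConvR chow 1 and 2 were highest in acute phase transcripts, with 129262 and 155118 TPM against 19516 to 28558 TPM. Results that rest on these libraries are given with and without them below.

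Per length, in median TPM over the 15 livers, the most abundant were the luminal chaperones. Hspa5 encodes BiP, the ER member of the HSP70 family, and stood at 663 TPM, with Calr, calreticulin, a lectin chaperone that also stores calcium, at 599 TPM. Hsp90b1, the ER member of the HSP90 family, followed at 542 TPM. Herpud1, a membrane protein of the degradation complex around the ubiquitin ligase HRD1, stood at 295 TPM, Xbp1 at 156 TPM and Pdia4, a disulfide isomerase, at 148 TPM. Hyou1, a nucleotide exchange factor of BiP, stood at 78.1 TPM. Below it were Sdf2l1, which works with the J-domain cochaperone Dnajb11, at 63.2 TPM, and Creld2, an ER protein with EGF-like domains that is induced by ER stress, at 55.8 TPM. Dnajb9, a J-domain cochaperone that also brings BiP to IRE1 and restrains it, was lowest at 39.7 TPM. All further levels are in CPM, counts scaled to a common effective library size, which compare livers and not genes.

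Xbp1 varied 2.78-fold over the 15 livers. In CPM, mice 1, 2 and 3 stood at 207, 242 and 183 in GF chow, 219.7, 329 and 235 in ConvR chow and 185, 163 and 144 in ConvD chow. On HF/HS they stood at 151, 161 and 142 in GF mice and 135, 118 and 183 in ConvR mice. The GF and ConvR chow livers held the 5 highest values, and in the order of group means (ConvR chow, GF chow, ConvD chow, GF HF/HS, ConvR HF/HS) each group overlapped the next.

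Among the ATP-driven chaperones of the lumen, Hspa5 stood at 2102, 1096 and 819 CPM in GF chow mice, 1359, 1653 and 1182 CPM in ConvR chow mice and 897, 877 and 1010.1 CPM in ConvD chow mice. On HF/HS it stood at 884, 1042 and 1010.2 CPM in GF mice and 1524, 1208 and 1349 CPM in ConvR mice. GF chow spanned the whole range, with its mouse 1 the highest and its mouse 3 the lowest of all 15, while the 3 ConvR HF/HS livers lay above every GF HF/HS and ConvD liver. Hyou1 stood at 525, 251 and 171 CPM in GF chow, 313, 406 and 214 CPM in ConvR chow and 171, 173 and 213 CPM in ConvD chow. It stood at 157, 188 and 180.1 CPM in GF HF/HS and 327, 269 and 325 CPM in ConvR HF/HS. The lowest ConvR HF/HS liver was thus above all 6 GF HF/HS and ConvD livers. Hsp90b1 ran from 808 CPM in ConvD chow 2 to 1878 CPM in GF chow 1, with a median of 971 CPM.

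Of the cochaperones, Sdf2l1 stood at 95.3, 45.4 and 45.8 CPM in GF chow, 50.9, 74.4 and 44.4 CPM in ConvR chow and 23.8, 18.3 and 34.0 CPM in ConvD chow. On HF/HS it stood at 25.6, 25.9 and 25.1 CPM in GF mice and 50.3, 36.6 and 46.2 CPM in ConvR mice. The 15 livers split without overlap: the 6 ConvD chow and GF HF/HS livers reached at most 34.0 CPM and the other 9 held at least 36.6 CPM. Dnajb9 stood at 31.6, 38.7 and 44.4 CPM in GF chow, 78.0, 53.2 and 64.6 CPM in ConvR chow and 43.0, 45.7 and 55.0 CPM in ConvD chow. It stood at 36.4, 48.8 and 39.3 CPM in GF HF/HS and 60.0, 47.6 and 43.4 CPM in ConvR HF/HS. Unlike the chaperones above it was at its lowest in GF chow 1 and at its highest in ConvR chow 1.

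Creld2 had the widest range of the 10, 7.97-fold from lowest to highest. It stood at 191.5, 47.8 and 29.6 CPM in GF chow, 82.7, 125.4 and 53.7 CPM in ConvR chow and 27.9, 28.6 and 44.8 CPM in ConvD chow. On HF/HS it stood at 24.0, 34.3 and 30.2 CPM in GF mice and 73.4, 59.1 and 64.9 CPM in ConvR mice. GF chow 1 stood at 4.95 times the mean of the other 2 mice of its group, and the ConvR HF/HS range lay above those of GF HF/HS and ConvD chow. Herpud1, of the degradation machinery, stood at 312, 185 and 158 CPM in GF chow, 386, 319.9 and 250.2 CPM in ConvR chow and 278, 379 and 379 CPM in ConvD chow. It stood at 342, 489 and 339 CPM in GF HF/HS and 449, 374 and 349.8 CPM in ConvR HF/HS. GF chow had the lowest mean and the HF/HS groups the highest, and GF chow overlapped neither of them. Pdia4 ran from 208 to 362 CPM and Calr from 600.02 to 1100.2 CPM, with their highest values in GF chow 1.

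**Figure D2:**
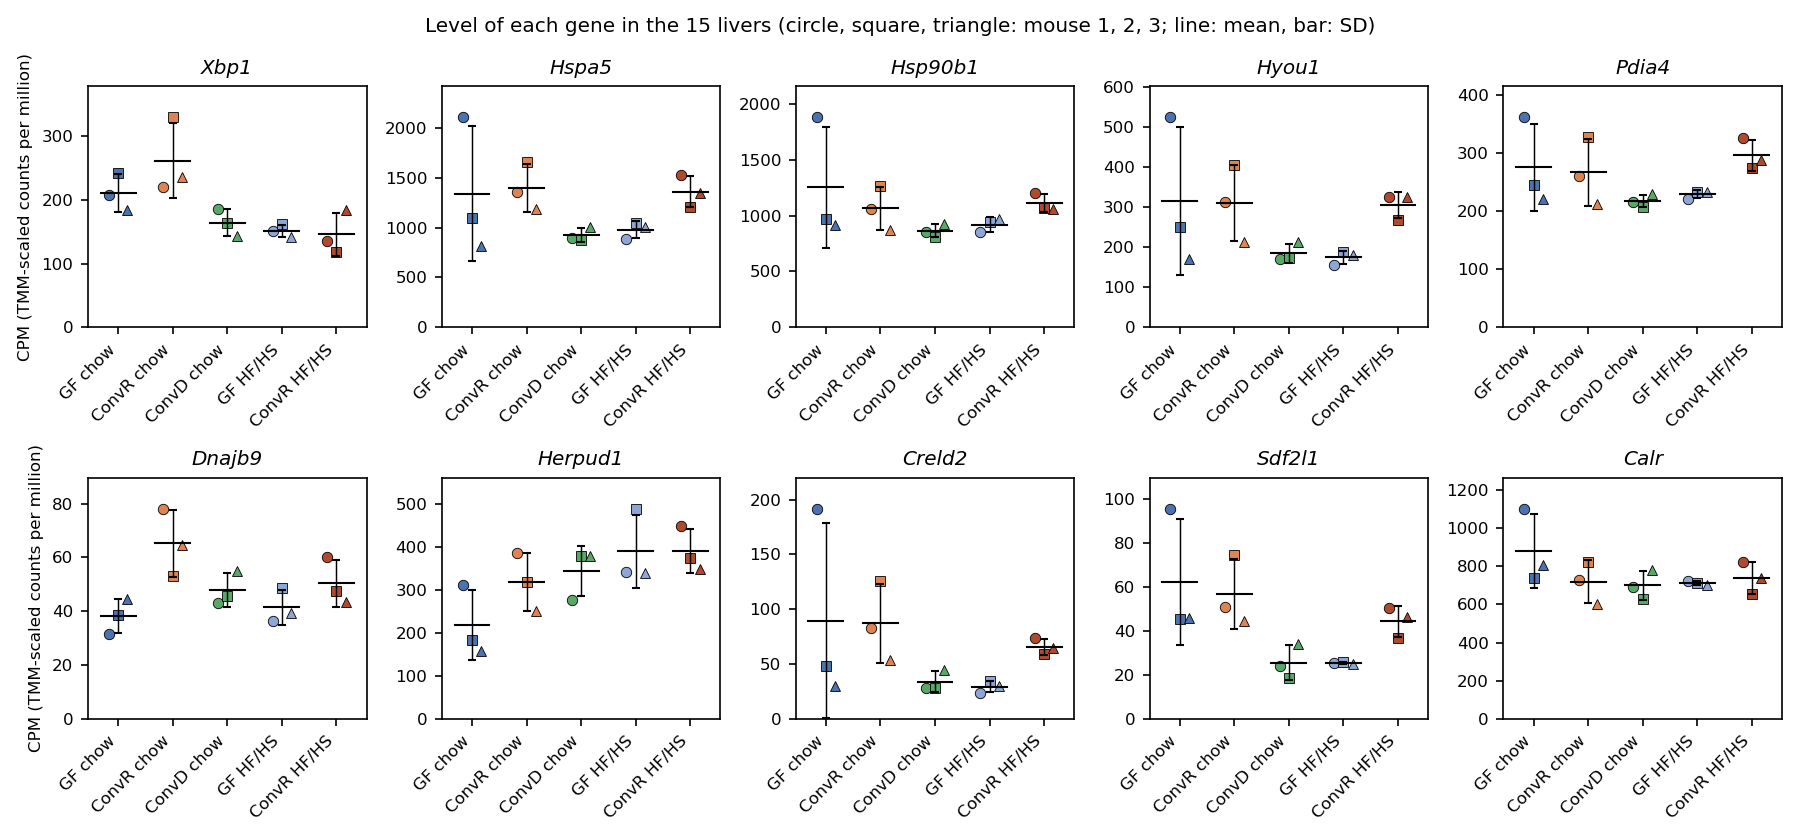
Level of each of the 10 genes in the 15 livers, in CPM on a linear axis from 0, by group; circles, squares and triangles are mice 1, 2 and 3, horizontal lines are group means and bars are SD (n = 3). The GF chow bars are wide for Creld2, Hyou1 and Hspa5 with mouse 1 far above mice 2 and 3, and the 3 ConvR HF/HS livers of Creld2, Hyou1 and Sdf2l1 lie above the 3 GF HF/HS livers.

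The spread within a group differed between the groups. The coefficient of variation of the 10 genes had a median of 40.4% in GF chow, with 99.0% for Creld2, and of 21.5% in ConvR chow. It had a median of 12.7% in ConvD chow, 7.73% in GF HF/HS, with 1.61% for Sdf2l1, and 11.4% in ConvR HF/HS. The tests below use 1 estimate of the spread per gene over all 5 groups, so that wide GF chow values enter every comparison, HF/HS included.

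In GF chow 1, 7 of the 10 genes had their highest level of the 15 livers: Hspa5, Hsp90b1, Hyou1, Pdia4, Creld2, Sdf2l1 and Calr. Against the mean of GF chow 2 and 3 this liver stood at 4.95 times for Creld2, 2.49 times for Hyou1, 2.20 times for Hspa5, 2.09 times for Sdf2l1 and 2.00 times for Hsp90b1. Xbp1 stood at 0.976 times and Dnajb9 at 0.760 times, so that these 2 did not share the excess. Fos, an immediate early transcription factor, was at 129 CPM in this liver against 28.9 and 5.95 CPM in GF chow 2 and 3, and its part in the chaperone levels was not tested. In ConvR chow, mouse 2 held the highest level of 8 of the 10 genes and mouse 3 the lowest of 8, and mouse 2 also had the highest and mouse 3 the lowest acute phase level of that group.

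**Figure D3:**
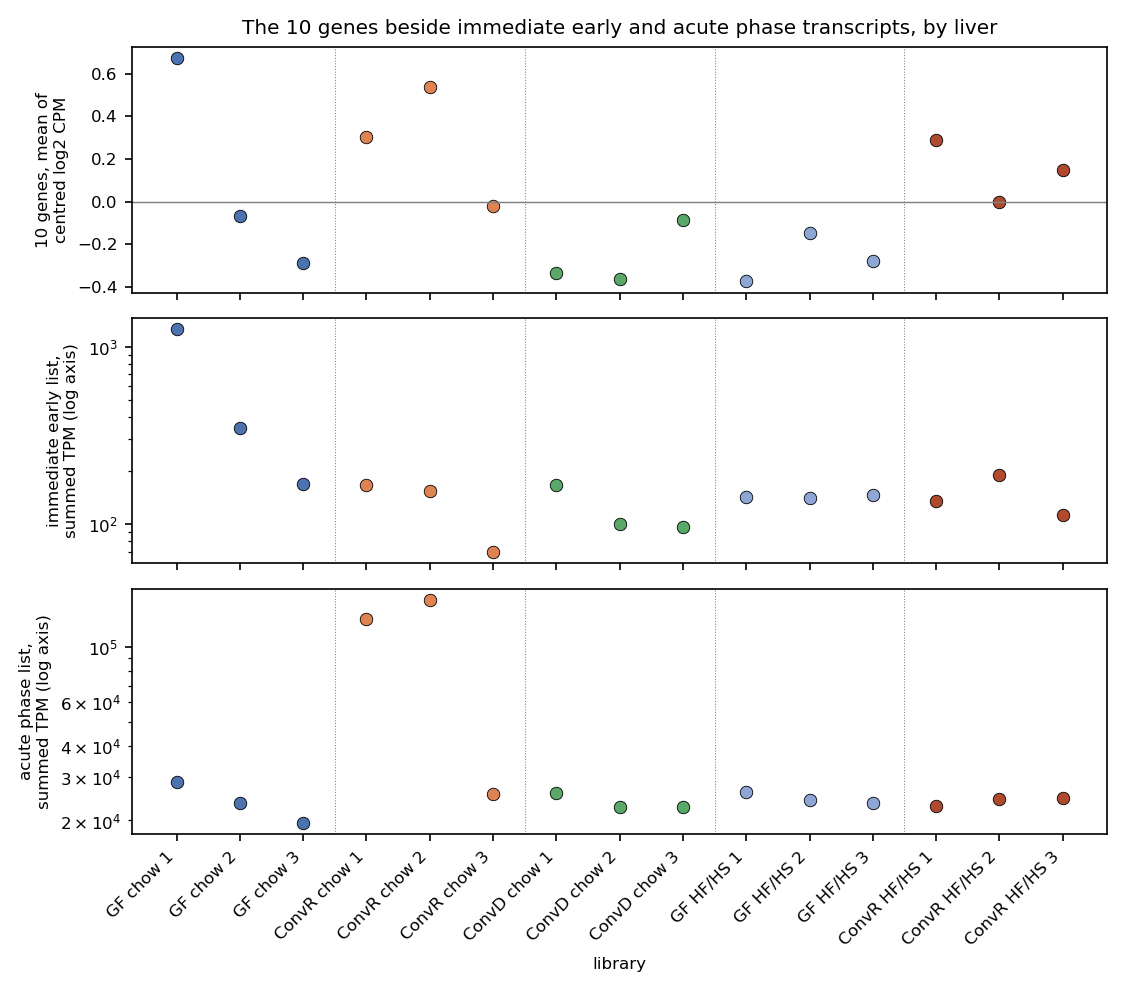
Mean of the centred log2 CPM of the 10 genes (top), summed TPM of the immediate early list (middle, log axis) and summed TPM of the acute phase list (bottom, log axis) in each liver. The highest mean of the 10 genes, 0.67, was in GF chow 1, which also had the highest immediate early level, and the next highest, 0.54, was in ConvR chow 2, which had the highest acute phase level.

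Across the 15 livers, which share groups and 1 sequencing study, the 45 pairs of the 10 genes had correlations of log2 CPM from -0.44 to 0.98, with a median of 0.46. Creld2, Hyou1 and Hspa5 followed the mean of the other 9 most closely, with r = 0.98, 0.97 and 0.97. Pdia4 (0.89), Hsp90b1 (0.88), Sdf2l1 (0.85) and Calr (0.63) came next, and Xbp1 (0.36), Dnajb9 (0.086) and Herpud1 (0.054) followed it least. The low values of Dnajb9 depended on GF chow 1. Without that liver Dnajb9 correlated at 0.63 with Creld2, 0.56 with Hspa5, 0.50 with Hyou1 and 0.48 with Sdf2l1. With all 15 livers these were 0.14, 0.09, 0.07 and 0.09. Other values of Dnajb9 without that liver were 0.36 with Hsp90b1, 0.30 with Herpud1, 0.28 with Pdia4, 0.24 with Xbp1 and 0.02 with Calr. With group means removed and GF chow 1 kept, the median of the 45 pairs was 0.78. Herpud1 then correlated at 0.81 with Creld2, 0.78 with Hyou1 and Hspa5, 0.76 with Hsp90b1 and 0.72 with Pdia4. Its other values were 0.65 with Calr, 0.58 with Sdf2l1, 0.14 with Dnajb9 and -0.09 with Xbp1. Correlations with group means removed were not computed without GF chow 1, so that their dependence on that liver is not known. The 21 pairs among the 7 genes other than Xbp1, Dnajb9 and Herpud1 had a median correlation of 0.89, and of 0.83 without GF chow 1. These 7 were chosen after their values were seen. These correlations are descriptions over 15 livers.

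Between ConvR and GF mice on HF/HS, the comparison asks whether a microbiota present since birth goes with a different level on the high-fat diet. The ranges of 6 of the 10 genes did not overlap and were higher in ConvR livers (Hspa5, Hsp90b1, Hyou1, Pdia4, Creld2 and Sdf2l1), where 12.7% of all genes tested had ranges apart in that direction. None of the 10 was called by edgeR's quasi-likelihood test at a Benjamini-Hochberg adjusted p below 0.05 over all genes, against 1.62% of all genes. The smallest adjusted p was 0.174, for Sdf2l1, and 4 of the 10 had an unadjusted p below 0.05, against 15.2% of all genes. Creld2 had the largest log2 fold change, 1.16 ± 0.51 (standard error, n = 3 mice per group here and below), from 29.5 ± 5.15 CPM (SD) in GF to 65.8 ± 7.23 CPM in ConvR livers. Hyou1 differed by 0.81 ± 0.31, Sdf2l1 by 0.80 ± 0.28, Hspa5 by 0.48 ± 0.26, Pdia4 by 0.37 ± 0.17 and Hsp90b1 by 0.27 ± 0.22. The median of the 10 was 0.32, beside -0.01 for all genes. Xbp1 (-0.06 ± 0.18), Herpud1 (0.00 ± 0.24) and Calr (0.05 ± 0.16) had differences smaller than their errors.

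The call on HF/HS depended on which livers set the spread. With the 6 HF/HS livers fitted alone, 4 genes were called higher: Creld2 and Hyou1, each with an adjusted p of 0.0115, Sdf2l1 (0.0139) and Pdia4 (0.0445), and 3.76% of all genes were called in that fit. Without GF chow 1, Hyou1 (adjusted p = 0.0432) and Creld2 (0.0408) were called, against 3.66% of all genes. Without GF chow 1 and ConvR chow 1 and 2, which are in neither compared group, 5 were called, Hspa5 joining the 4, against 6.38% of all genes. The log2 fold changes hardly moved between these fits, from 0.81 to 0.82 for Hyou1 and from 1.16 to 1.17 for Creld2. Fold changes here are relative to a scaling in which the median of all genes is near 0. On log2(TPM + 1) that median was 0.16 in this comparison, and the median of the 10 genes was 0.52. Hepatocyte markers summed to 78425 to 99295 TPM in ConvR HF/HS livers against 105022 to 108991 TPM in GF HF/HS livers. Ranges in CPM were apart and lower for 5 of the 6, against 1813 of all 12377 genes, and 0 of the 6 were called. Of the 21 acute phase genes and the 15 tested immediate early genes 0 were called. Kupffer cell markers summed to 300.2 to 448 TPM against 226 to 287 TPM, with 0 of the 7 apart. The part of these cell types in the result was not tested.

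On the same diet none of the 120 other genes of the ER pathway, in 8 lists, was called, while 33 of them (27.5%, against 12.7% of all genes) had ranges apart and higher in ConvR livers. Of the 24 measured genes of ER-associated degradation, 10 were of this kind. Among these were Syvn1, the HRD1 ubiquitin ligase (0.94 ± 0.26, adjusted p = 0.0849), and its partner Sel1l (0.47 ± 0.14, adjusted p = 0.106). Ero1lb, an oxidase that recharges disulfide isomerases, had the smallest adjusted p of the 8 lists, 0.0554, with a log2 fold change of 0.78 ± 0.19. Atf4 had a log2 fold change of -0.40 ± 0.16 (adjusted p = 0.256), with ranges apart and lower. Outside the ER, 8 of 19 cytosolic and mitochondrial chaperone genes had ranges apart and higher in ConvR livers and 2 apart and lower, with 0 called.

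**Figure D4:**
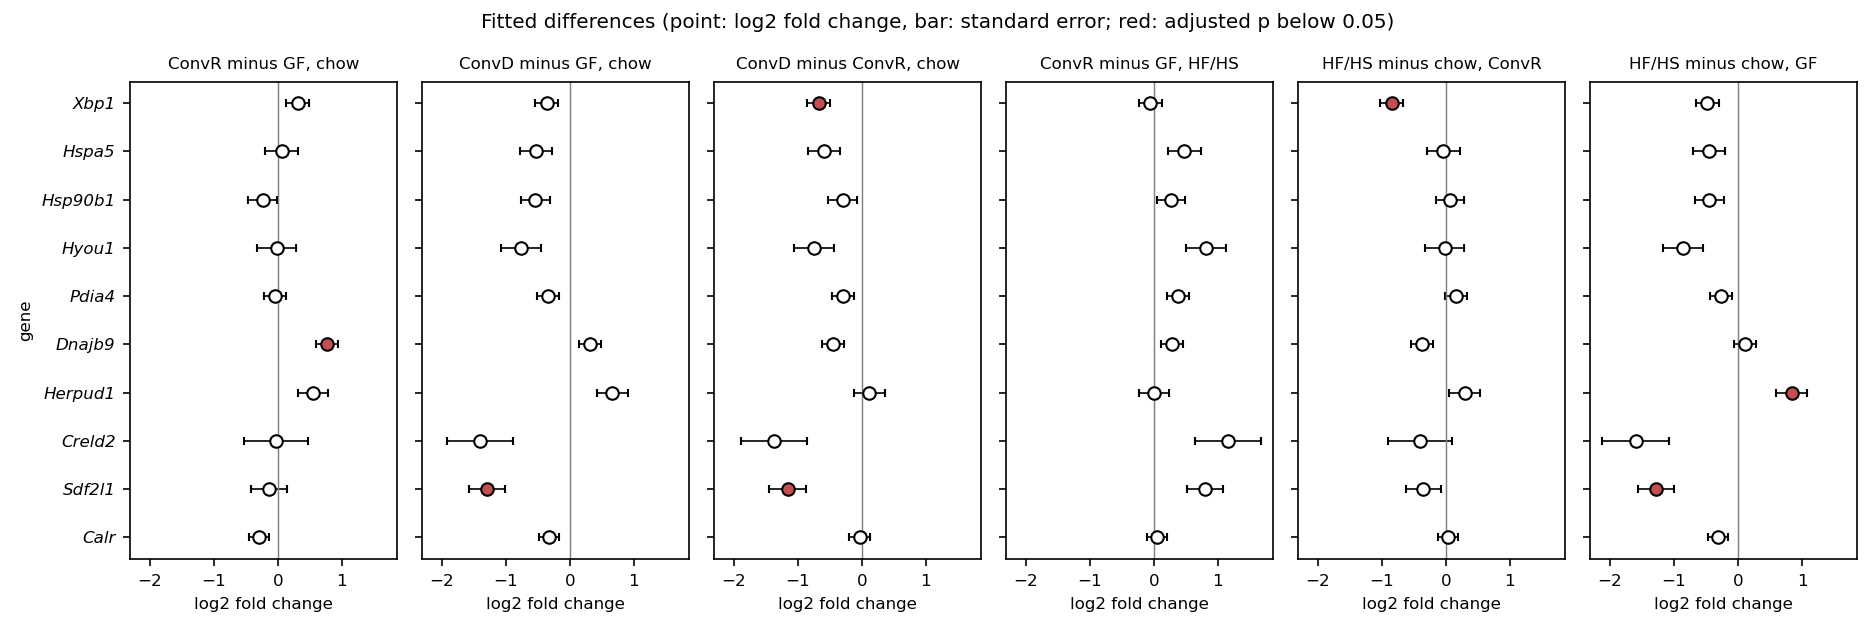
Log2 fold change of each gene (point) with its standard error (bar) in the 6 comparisons between groups, n = 3 mice per group; filled red points had an adjusted p below 0.05. The red points are Dnajb9 in ConvR against GF chow, Sdf2l1 in 3 panels, Xbp1 in 2 panels and Herpud1 in HF/HS against chow in GF mice.

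ConvD and ConvR mice on chow both carried a microbiota, acquired at 15 weeks or from birth. In ConvD livers 2 of the 10 genes were called lower, against 3.30% of all genes called lower and 5.50% called in either direction. Xbp1 fell by 0.67 ± 0.18 on the log2 scale, from 261 ± 59.2 CPM in ConvR to 164 ± 20.9 CPM in ConvD livers (adjusted p = 0.0433). Sdf2l1 fell by 1.16 ± 0.29, from 56.6 ± 15.8 CPM to 25.4 ± 7.95 CPM (adjusted p = 0.0348). Ranges were apart and lower in 5 genes, Hspa5, Hyou1 and Creld2 being the others, against 15.1% of all genes. The median of the 10 was -0.52, beside -0.01 for all genes, and Herpud1 (0.11 ± 0.24) was the 1 gene with a positive value. Without ConvR chow 1 and 2 the median was -0.28, and Pdia4 (0.03) and Calr (0.22) were positive too, while on log2(TPM + 1) it was -0.23, beside 0.21 for all genes. Of the 15 fits that left out 1 library, Xbp1 was called in 6 and Sdf2l1 in 8. Neither was called without ConvR chow 1 or 2, without ConvD chow 1 or 2, or without any 1 of the GF HF/HS livers, and Xbp1 also not without ConvD chow 3 or ConvR HF/HS 1. Without both ConvR chow 1 and 2, Xbp1 stood at -0.52 and Sdf2l1 at -0.81 (adjusted p = 0.438 and 0.496). Without GF chow 1 alone, 5 genes were called lower, Xbp1, Hspa5, Hyou1, Creld2 and Sdf2l1, in a fit that called 11.2% of all genes. ConvR chow 1 and 2 are the livers with high acute phase transcripts, and 16 of the 21 acute phase genes (median -2.34) and both tested neutrophil markers (median -3.60) were called lower in ConvD livers. Hepatocyte markers summed to 39628 to 71255 TPM in ConvR chow against 83490.4 to 99510 TPM in ConvD chow livers. Ranges in CPM were apart and higher for 3 of the 6, as for 1869 of all 12377 genes. The log2 fold changes of these markers were positive in 3 and negative in 3, with a median of 0.05 and 0 called. The part of these transcripts and cell types in the difference was not tested.

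Of the 120 other ER pathway genes, 0 were called higher and 12 lower in ConvD than in ConvR chow livers. The list of translocation and signal peptide cleavage had 5 of its 20 genes called lower, among them Sec61b and Sec61g, subunits of the channel through which chains enter the ER. Their log2 fold changes were -0.40 ± 0.08 (adjusted p = 0.0197) and -0.43 ± 0.11 (adjusted p = 0.0375). Eif2ak3, the gene of PERK, was called lower (log2 fold change -0.57 ± 0.15, adjusted p = 0.0440), and so was Manf, a BiP-binding cofactor (-0.89 ± 0.21, adjusted p = 0.0307).

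ConvD and GF mice on chow were compared to show what differed 4 weeks after colonization. Sdf2l1 was the 1 gene of the 10 called, against 5.59% of all genes, and fell by 1.29 ± 0.29 on the log2 scale, from 62.2 ± 28.7 CPM in GF to 25.4 ± 7.95 CPM in ConvD livers (adjusted p = 0.0238). Fold changes were negative in 8 of the 10 genes, with a median of -0.45. The size of this median rested on GF chow 1: without that liver it was -0.12, while the same 8 genes stayed negative. Creld2 stood at -1.41 ± 0.51 (adjusted p = 0.114) and at -0.19 without that liver. Hyou1 stood at -0.77 ± 0.31 (adjusted p = 0.148) and at -0.18 without it. Sdf2l1 was called in 12 of the 15 fits that left out 1 library, and not without GF chow 1 (-0.84, adjusted p = 0.0684), ConvD chow 1 or ConvD chow 2. Without GF chow 3, Hyou1 and Creld2 were called lower too, against 6.45% of all genes. In the same comparison 9 of the 15 tested immediate early genes were called lower in ConvD livers, all 15 having negative values with a median of -3.36, and their part in the change of Sdf2l1 was not tested. Herpud1 had a positive value, 0.66 ± 0.24 (adjusted p = 0.112), which was called without GF chow 1, at 1.02 (adjusted p = 0.0298). Other ER pathway genes numbered 3 called higher, all in the list of COPII transport from the ER, and 11 called lower, of 120. Ppib, an ER prolyl isomerase, fell by 0.48 ± 0.09 on the log2 scale (adjusted p = 0.0164) and Atf4 fell by 0.65 ± 0.16 (adjusted p = 0.0363).

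ConvR and GF mice on chow differed in 1 of the 10 genes, against 4.72% of all genes. Dnajb9 rose by 0.77 ± 0.17 on the log2 scale, from 38.3 ± 6.43 CPM in GF to 65.3 ± 12.4 CPM in ConvR livers (adjusted p = 0.0282). Its ranges did not overlap, the lowest ConvR liver standing at 53.2 CPM and the highest GF liver at 44.4 CPM, and this held for 9.82% of all genes in that direction. Without GF chow 1 the value was 0.66 (adjusted p = 0.0680), and Herpud1 was called instead, at 0.91 (adjusted p = 0.0487) in place of 0.55 ± 0.24 (adjusted p = 0.188). Dnajb9 was not called without ConvR chow 1 or 2 either, which leaves 12 of 15 such fits with a call, and without all 3 libraries it stood at 0.63 (adjusted p = 0.394). For the chaperones the difference moved with the libraries that stood apart in both groups. Creld2 stood at -0.03 ± 0.50 with all livers, at 1.19 without GF chow 1 (adjusted p = 0.0660), at -0.73 without ConvR chow 1 and 2 and at 0.47 without all 3. Hyou1 stood at -0.02 ± 0.31, 0.57, -0.56 and 0.02 in the same order, and the median of the 10 at -0.03, 0.44, -0.43 and 0.08. In this comparison 15 of the 21 acute phase genes were called higher (median 1.97) and 8 of the 15 tested immediate early genes lower (median -2.19) in ConvR livers, and their part was not tested. Among 120 other pathway genes, 1 was called higher, Tmx1, a membrane-bound thioredoxin-like oxidoreductase (0.34 ± 0.08, adjusted p = 0.0311), and 1 lower, Dnajc1, a J-domain protein of the ER membrane (-0.27 ± 0.07, adjusted p = 0.0473).

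The diets were compared within ConvR mice, and 1 of the 10 genes was called, against 14.6% of all genes. Xbp1 fell by 0.84 ± 0.18 on the log2 scale, from 261 ± 59.2 CPM on chow to 146 ± 33.7 CPM on HF/HS (adjusted p = 0.00649), the highest HF/HS liver standing at 183 CPM and the lowest chow liver at 219.7 CPM, where 17.2% of all genes had ranges apart and lower. It was called without each of the 15 libraries in turn, with values from -1.04 to -0.64, but not with the 6 ConvR livers fitted alone (-0.84, adjusted p = 0.0537). Without both ConvR chow 1 and 2 it stood at -0.69 (adjusted p = 0.100), and without GF chow 1 as well at -0.68 (adjusted p = 0.0657). In the same comparison 20 of the 21 acute phase genes (median -2.10), both tested neutrophil markers (median -3.25) and both tested exocrine pancreas markers (median -1.31) were called lower on HF/HS, and their part in the change of Xbp1 was not tested. The luminal chaperones had differences smaller than their errors, -0.04 ± 0.25 for Hspa5, -0.02 ± 0.31 for Hyou1 and 0.06 ± 0.22 for Hsp90b1, with a median of -0.03 for the 10. Without ConvR chow 1 and 2 they stood at 0.20, 0.52 and 0.35, none called, and the median at 0.29. Without GF chow 1 as well, Pdia4 was the 1 gene called, higher on HF/HS (0.49, adjusted p = 0.0243), against 8.67% of all genes. On log2(TPM + 1) the median of all genes was 0.30 in this comparison, and Pdia4, Herpud1 and Calr were called higher beside a lower Xbp1, in a fit that called 49.3% of all genes. Of 120 other pathway genes 7 were called higher and 10 lower. Atf6, the gene of the cleaved sensor, rose by 0.42 ± 0.12 (adjusted p = 0.0301), while Atf4 fell by 0.63 ± 0.17 (adjusted p = 0.0215). In a separate list of integrated stress response genes, 5 of the 13 tested were called higher and 1 lower, with a median of 0.33. In the translocation list 0 were higher and 4 of 20 lower, and Ssr4, a subunit of the translocon-associated complex, fell by 0.81 ± 0.15 (adjusted p = 0.00333).

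Within GF mice, HF/HS and chow differed in 2 of the 10 genes, in opposite directions, against 9.55% of all genes. Sdf2l1 fell by 1.28 ± 0.29, from 62.2 ± 28.7 CPM on chow to 25.5 ± 0.410 CPM on HF/HS (adjusted p = 0.0170). Herpud1 rose by 0.84 ± 0.24, from 218 ± 82.1 CPM to 390.1 ± 85.6 CPM (adjusted p = 0.0433). Ranges were apart and lower in 3 genes, Sdf2l1, Xbp1 and Calr, against 16.2% of all genes. Xbp1 stood at -0.48 ± 0.18 (adjusted p = 0.101). Without GF chow 1, Herpud1 stood at 1.19 (adjusted p = 0.0114) and Sdf2l1 at -0.83 (adjusted p = 0.0544), while Creld2 moved from -1.60 ± 0.52 (adjusted p = 0.0663) to -0.38. In the same comparison 10 of the 15 tested immediate early genes were called lower on HF/HS, all 15 having negative values with a median of -2.93, and their part in the changes was not tested. Of the 15 fits that left out 1 library, Sdf2l1 was called in 11, all but those without GF chow 1 or any 1 GF HF/HS liver. Herpud1 was called in 4, those without GF chow 1, ConvR chow 1, ConvR chow 3 or ConvD chow 1. Of 120 other pathway genes 6 were called higher and 11 lower, with Atf4 (-0.77 ± 0.16, adjusted p = 0.0141) and Atf6b (-0.58 ± 0.13, adjusted p = 0.0172) among the lower. In the list of integrated stress response genes, 2 of the 13 tested were called higher and 2 lower, with a median of 0.23.

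The comparisons named above share groups, GF chow and ConvR chow each entering 3 of the 6, so that their lists of called genes are not independent. Sdf2l1 is the plainest case: it was called lower in 3 comparisons, of which 2 use the same GF chow livers and 2 the same ConvD livers.

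The interaction asks whether the difference between ConvR and GF mice was itself different on the 2 diets. None of the 10 genes was called by edgeR, which called 0.00% of all genes, and the smallest adjusted p was 0.354. Before adjustment 1 of the 10, Sdf2l1 (0.93 ± 0.40), had a p below 0.05, against 12.7% of all genes. The DESeq2 Wald test also called 0 of the 10, against 1.21% of all genes, and limma-voom 0, against 0% of all genes. Creld2 had the largest value, 1.19 ± 0.71, which was -0.02 without GF chow 1. When all 5 groups were tested together for any difference, 3 of the 10 were called, against 25.7% of all genes: Sdf2l1 (adjusted p = 0.00895), Xbp1 (0.0107) and Dnajb9 (0.0257). Sdf2l1 and Xbp1 were called in this test without each of the 15 libraries in turn, and Dnajb9 in 13, not without ConvR chow 1 or GF HF/HS 3. Without ConvR chow 1 and 2 together Xbp1 was not called (adjusted p = 0.0569), nor was Dnajb9 (0.109), and Sdf2l1 alone was. Leaving out GF chow 1 gave 7 of the 10 called, Hspa5, Hyou1, Herpud1 and Creld2 joining these 3, against 28.9% of all genes. Without all 3 libraries 7 were called, against 21.7%, Xbp1 (0.0623) not among them.

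Among the 8532 genes whose mean reached 5 CPM, the 8 whose log2 CPM followed the mean of the 10 genes most closely over the 15 livers were, by Pearson's r, Dnajc3 (0.96), Manf (0.95), Dnajb11 (0.95), Tmed3 (0.93), Srprb (0.93), Cad (0.93), Syvn1 (0.92) and Cebpb (0.92). Dnajc3 and Dnajb11 are J-domain partners of BiP, Srprb is the membrane anchor of the receptor for the signal recognition particle, and Cebpb is a transcription factor of the acute phase. Dnajb11 stood at 156.5, 91.0 and 88.8 CPM in GF chow and at 105.5, 89.4 and 106 CPM in ConvR HF/HS, against 81.0, 85.2 and 82.0 CPM in GF HF/HS. Cebpb stood at 107.5 CPM in GF chow 1 and at 26.6 and 19.3 CPM in GF chow 2 and 3. By Spearman correlation 6 of the 8 were again among the top 8, on TPM 7, and with group means removed 3.

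**Figure D5:**
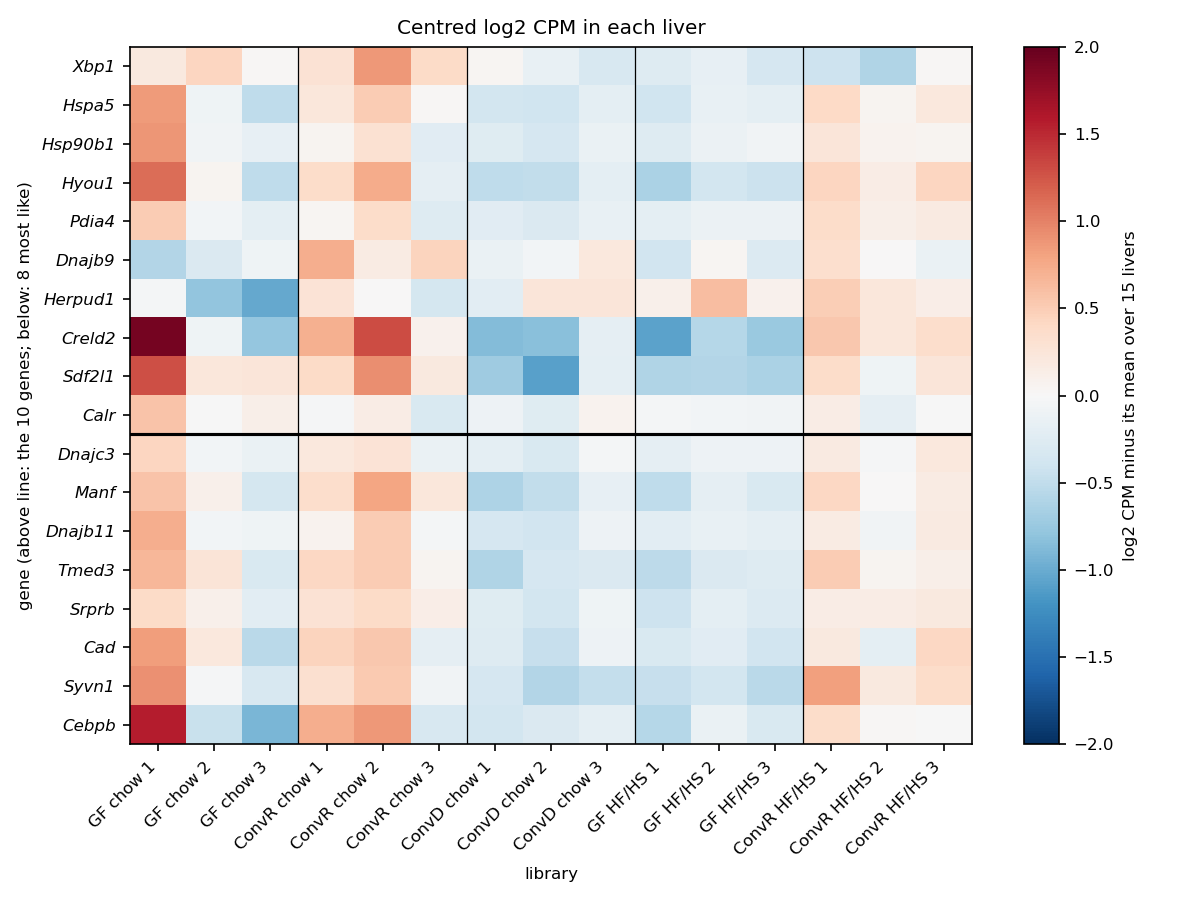
Log2 CPM minus its mean over the 15 livers for the 10 genes (above the line) and the 8 genes most like their mean (below it); red is above and blue below a gene's mean. GF chow 1 is red in 7 of the 10 rows above the line where it held the highest level, and Dnajb9 is blue there, while ConvD chow and GF HF/HS columns are mostly blue for Hyou1, Creld2 and Sdf2l1.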

How the data were processed

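Liver RNA was extracted with a Qiagen kit and sequenced from Illumina TruSeq Stranded mRNA libraries, per the labels' protocols. The deposited expected counts are estimates per gene, not scaled between libraries, for which the submitters' processing notes name Bowtie2, RSEM 1.2.23 and build mm9. The deposited TPM values were scaled within each library by length. Groups were read from the sample labels.

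Expected counts were rounded and fitted with edgeR 4.0.16 (R 4.3.3; filterByExpr with a minimum count of 10, TMM, 5 group means, 10 residual degrees of freedom, biological coefficient of variation 0.149). The two-sided quasi-likelihood F test was adjusted by Benjamini-Hochberg over 12377 genes and called below 0.05. Each standard error was obtained by dividing a log2 fold change by the root of its F. Effective library sizes were used for CPM, with 2 as the prior count of log2 CPM.

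The 10 genes, the 8 ER pathway lists and the other lists were chosen with earlier results of these data known. Named list genes were up to 4 of each list with the smallest p in the comparison described, and the genes most alike were the 8 with the highest correlation. Promoters came from RefSeq (GRCm38.p6). Because the notes name mm9 for the counts, no coordinates of the counted genes were used. The calling step was tested on simulated data. Alternatives used DESeq2 1.42.0, limma 3.58.1 and other filters, scalings and libraries.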

Additional observations from a re-analysis of the deposited data

How the results depend on the processing

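Of the 10 genes, the number called in the main analysis was 1 for ConvR against GF chow, 1 for ConvD against GF chow, 2 for ConvD against ConvR chow, 0 for ConvR against GF on HF/HS, 1 and 2 for the diets in ConvR and GF mice, 0 for the interaction and 3 for any difference among the 5 groups. These numbers stayed within 1.5 times with DESeq2 size factors, no normalization factors, no filter, a minimum count of 50, limma-voom and a fold change of at least 1.5. The DESeq2 Wald test called 5 for any difference, against 33.0% of all genes. On log2(TPM + 1), limma-trend called 0 for ConvR against GF chow, 1 for ConvD against ConvR chow, 1 for ConvR against GF on HF/HS, 4 for the diets in ConvR mice and 5 for any difference, where it called 7.57%, 30.1%, 6.39%, 49.3% and 47.6% of all genes. With the compared groups fitted alone, 4 were called for ConvR against GF on HF/HS, against 3.76% of all genes, and 0 in each of the other 5 comparisons of 2 groups. There the share of all genes was 0% for ConvR against GF chow, 0.092% for ConvD against GF chow, 0.701% for ConvD against ConvR chow, and 6.93% and 2.16% for the diets in ConvR and GF mice. With the length trend removed, ConvD against GF chow had 0 (2.32% of all genes) and ConvD against ConvR chow 1 (4.73%). With the replicate block, ConvD against ConvR chow had 1 (3.87% of all genes) and the other numbers stayed within 1.5 times. The numbers were not taken to pair mice, since same-numbered livers of different groups did not deviate together (30 pairs, correlation -0.35 to 0.33, median -0.022), and 2 of 15 libraries correlated best with their own number.

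Without ConvR chow 1 and 2, 0 were called for ConvR against GF chow, 0 for ConvD against ConvR chow, 0 for the diets in ConvR mice and 1, Sdf2l1, for any difference, against 0.094%, 0.047%, 2.69% and 15.6% of all genes. Leaving out GF chow 1 as well, an alternative added after the data were seen, kept only ConvR chow 3 of its group. Where the numbers called in that fit are given above, the share of all genes stands beside them. For the diets in ConvR mice, Xbp1 stood at -0.68 and Pdia4 at 0.49 in that fit. With 1 library left out in turn, the numbers ran from 0 to 1, 0 to 3 and 0 to 5 for the chow comparisons, 0 to 2 for ConvR against GF on HF/HS, 1 to 1 for the diets in ConvR mice, 0 to 3 in GF mice, 0 to 0 for the interaction and 2 to 7 for any difference. The share of all genes called in these fits moved too. For ConvD against ConvR chow it was 0.431% without ConvR chow 2, where 0 were called, and 11.2% without GF chow 1, where 5 were. Without GF chow 1 it was 3.66% for ConvR against GF on HF/HS and 28.9% for any difference, the fits with 2 and 7. Without GF chow 3 it was 6.45% for ConvD against GF chow and 9.37% for the diets in GF mice, the fits with 3 each. No fold change of a called gene changed sign.

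With no normalization factors the median over all genes was, in log2, 0.16 for ConvR against GF on HF/HS, 0.19 for the diets in ConvR mice and 0.22 for the interaction. On log2(TPM + 1) it was -0.10 for ConvR against GF chow, 0.21 for ConvD against ConvR chow, 0.16 for ConvR against GF on HF/HS, 0.30 for the diets in ConvR mice and 0.27 for the interaction. The 3 mice per group and the wide GF chow values limit the precision, and the counts do not separate the 2 forms of Xbp1 mRNA.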
